A study of Homo sapiens with 2 samples.

Results

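The genes described here are the 4 receptor kinases of the fibroblast growth factor (FGF) family, FGFR1 to FGFR4, and 4 genes that act with them: the decoy-like receptor FGFRL1, the co-receptor KLB, the carrier protein FGFBP1 and the hormone FGF19. They were chosen by family membership with their read counts in both libraries already in view, so the counts themselves helped to pick them. All 8 symbols were found among the 29972 human genes of the table. RNA was sequenced from 2 xenograft tumours grown under the skin of nude mice, which lack mature T cells. Both came from NCI-N87, a stomach cancer line of human origin in which ERBB2, the gene of HER2, is amplified. One tumour had no treatment. The other, labelled refractory, came from mice given T-DM1, an antibody against HER2 that carries a microtubule poison, every 3 weeks over 18 weeks. The labels do not say whether a library pools several tumours.

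FGFs bind their receptors together with heparan sulfate, a sugar chain of cell surface proteoglycans, and the receptor pair then phosphorylates the adaptor FRS2, which feeds RAS-ERK signalling. ERK output raises its own brakes, among them Sprouty proteins and the phosphatase DUSP6. FGF19 is different from most of the family: it circulates as a hormone, binds FGFR4 best when the klotho protein KLB is present, and in the gut is made in response to bile acids. Epithelial cells usually splice FGFR2 into the form that answers to mesenchymal FGFs. Read counts per gene do not separate those splice forms.

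Each group is 1 library, with 75722117 expected counts in the untreated and 59902704 in the refractory library. No difference below has a replicate check or a test across samples, and the intervals cover counting error only. Counts were scaled to CPM, the usual unit of reads relative to the scaled library total, and only genes with 1 CPM or more in at least 1 library are counted below as described. Differences are refractory relative to untreated on a log2 scale with 1 CPM added to each level, and a gene was called at 2-fold on that scale. The 8 epithelial markers were all described and none was called. In the untreated and the refractory library, EPCAM stood at 471 and 785 CPM, KRT8 at 3204 and 1827 CPM and ERBB2 at 7267 and 7975 CPM. Of 10 fibroblast markers only COL1A1 was described (2.92 and 1.80 CPM), with 4 at 0 counts in each library and a summed level of 4.63 and 2.36 CPM. The 6 endothelial markers summed to 4.21 and 1.30 CPM. The 6 leukocyte markers summed to 31.7 and 130 CPM, 4 of them described and 3 called higher, with LYZ (27.2 and 95.9 CPM) and CD68 (3.62 and 29.2 CPM) taking most of it. ITGAM (0.419 and 3.32 CPM) was the other one called. For these marker calls the background is the share over all described genes, 9.80% higher and 11.0% lower. PTPRC, the pan-leukocyte gene, stood at 0.0654 and 0.287 CPM and CSF1R at 0 and 0.0506 CPM. These tumours grew in mice and the genes counted are human, so host fibroblasts, endothelial cells and leukocytes are not measured by these markers. How mouse reads were kept apart is not given, and their part in any result below was not tested. In bulk tumour RNA, fewer cells of a type and less RNA per cell cannot be told apart.

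Of the 8 genes 6 were described. FGFR3 and FGFR4 were called higher in the refractory tumour and FGF19 was called lower, and FGFR2, FGFRL1 and FGFBP1 lay between. FGFR1 and KLB stayed under 1 CPM in both libraries. Over all 14167 described genes, 9.80% were called higher and 11.0% lower, with a median difference of 0.03 on the log2 scale. The genes were chosen with these calls known, so nothing is read from their share.

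**Figure D1:**
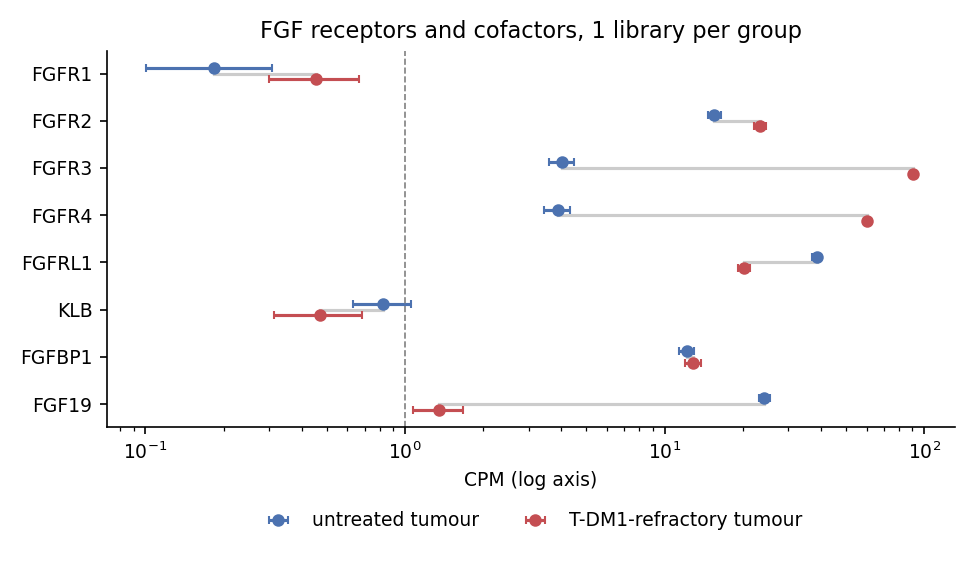
Level of each of the 8 genes in CPM (log axis) in the untreated (blue) and the T-DM1-refractory tumour (red), 1 library each. Bars are exact 95% Poisson intervals of the counts and the dashed line marks 1 CPM. FGFR3 and FGFR4 move right to 90.8 and 60.4 CPM, FGF19 moves left to 1.35 CPM, and FGFR1 and KLB stay left of the line.

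FGFR3 and FGFR4 were the members that were higher, and the sequence before their starts is shown because both windows are dense in the GC box, the letters GGGCGG that the SP family of factors reads. The sequences are from RefSeq promoter windows on GRCh38.p14, 5′ to 3′ on the gene's strand, each ending 31 bases before the listed start, so that no annotated exon of the gene is included. Capitals mark GGGCGG or its reverse complement. FGFBP1, which hardly differed between the tumours, is given beside them. The intervals are chr4:1793043-1793262 on the plus strand for FGFR3, chr5:177086665-177086884 on the plus strand for FGFR4 (its first listed start) and chr4:15938771-15938990 on the minus strand for FGFBP1.
FGFR3: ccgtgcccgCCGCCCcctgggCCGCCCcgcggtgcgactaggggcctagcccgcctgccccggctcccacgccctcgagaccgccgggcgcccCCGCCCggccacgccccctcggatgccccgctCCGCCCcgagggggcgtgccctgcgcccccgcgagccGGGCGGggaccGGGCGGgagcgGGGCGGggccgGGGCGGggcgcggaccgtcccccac
FGFR4: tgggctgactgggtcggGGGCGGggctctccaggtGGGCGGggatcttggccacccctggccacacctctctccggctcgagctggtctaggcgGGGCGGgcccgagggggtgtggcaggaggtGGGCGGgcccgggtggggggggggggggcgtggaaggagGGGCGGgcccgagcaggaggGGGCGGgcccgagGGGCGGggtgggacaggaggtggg
FGFBP1: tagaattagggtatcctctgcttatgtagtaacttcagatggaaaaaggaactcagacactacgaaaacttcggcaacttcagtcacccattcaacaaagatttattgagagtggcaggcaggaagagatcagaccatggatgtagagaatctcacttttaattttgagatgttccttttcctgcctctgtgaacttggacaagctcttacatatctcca

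In the 250 bases before the start, FGFR3 held 8 GC boxes, 4 on each strand, and FGFR4 held 7, all on the gene's strand. Among 35116 windows of the same length in the table, 42.6% held at least 1 match, 0.584% held 8 or more and 1.12% held 7 or more. FGFR4's second listed start had 0, FGFRL1 had 4, the 5 windows of FGFR2 had 0 to 3, and KLB and FGFBP1 had 0. FGFR1 was not searched, and FGF19 had no window. The windows of FGFR3 and FGFR4 were 86.8% and 79.6% G and C against a median of 58% over all windows, while KLB (39.2%) and FGFBP1 (40.8%) lay below it. Other motifs searched on both strands were ACGTG, the core that hypoxia-inducible factors bind (18.5% of all windows), TATAAA (10.7%), CCAAT (32.0%) and the AP-1 letters TGANTCA (6.57%). No motif contains another. Neither of the printed FGFR3 and FGFR4 windows, taken to 250 bases, held any of these 4. ACGTG had 2 matches before FGFRL1, 2 before the second start of FGFR4 and 1 before start 4 of FGFR2. CCAAT had 1, 2 and 1 matches before starts 1, 2 and 3 of FGFR2, and 1 each before FGFRL1 and FGFBP1. TATAAA and TGANTCA had 0 matches in the windows of these genes. A match is a run of letters, not a bound site.

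FGFR3 (chromosome 4, coding part 1793935 to 1807262) is a receptor kinase best known from bladder cancer and skeletal growth. Its counts were 307 in the untreated and 5384 in the refractory library, or 4.02 and 90.8 CPM. The refractory tumour was the high one, 22.6-fold (95% interval 20.1 to 25.4), a difference of 4.19 on the log2 scale. Counted from the highest, that difference was number 53 of the 14167 described genes.

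FGFR4 (chromosome 5, coding part 177089603 to 177097676) is the receptor that FGF19 uses in liver. It had 296 and 3586 counts, or 3.87 and 60.4 CPM. Here too the refractory library was the high one, 15.6-fold (95% interval 13.9 to 17.6) and 3.66 on the log2 scale, number 79 from the highest. The genes of these receptors lie on different chromosomes and had the same direction.

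FGFR2 (chromosome 10, coding part 121479857 to 121593817) is the receptor amplified in a subset of gastric cancers. It had 1189 and 1385 counts, 15.6 and 23.3 CPM. The refractory library was 1.501-fold higher (95% interval 1.39 to 1.62), short of the 2-fold call. FGFR1 (chromosome 8, coding part 38413628 to 38457446), the receptor most common in mesenchymal cells, had 14 and 27 counts, 0.183 and 0.455 CPM. Its ratio of 2.49 (95% interval 1.26 to 5.13) rests on these few reads, and the gene overlaps LETM2 on the opposite strand, from which its reads cannot be separated without strand information.

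Levels of different genes are compared per length, in the deposited FPKM. In the untreated tumour FGFR2 led the receptor kinases at 4.44 FPKM, followed by FGFR4 at 1.43, FGFR3 at 1.02 and FGFR1 at 0.0436. In the refractory tumour FGFR3 (23.1 FPKM) and FGFR4 (22.4 FPKM) led, with FGFR2 at 6.43 and FGFR1 at 0.135. Summed over the 4 genes, the level was 6.94 and 52.1 FPKM, a ratio of 7.50. FGFR2 made up 64.0% of that sum in the untreated and 12.3% in the refractory library, and FGFR3 with FGFR4 made up 35.4% and 87.4%. FGFR2 was itself no lower in the refractory tumour, so its smaller share came with the higher level of the other receptors. FGFR3 and FGFR4 differed from each other by a ratio of 1.03 there, which is too close to order them with 1 library.

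**Figure D2:**
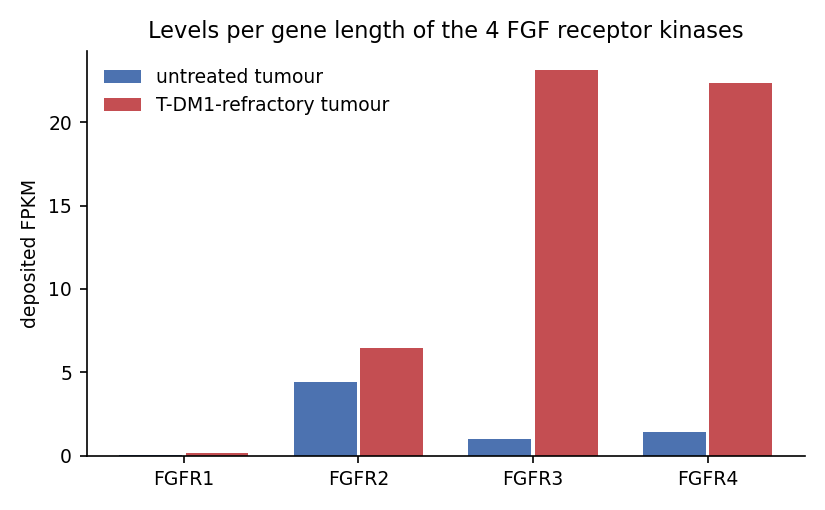
Deposited FPKM (linear axis from 0) of the 4 FGF receptor kinases in the untreated (blue) and the T-DM1-refractory tumour (red), 1 library each and therefore no error bars. FGFR2 is the tallest blue bar at 4.44, and FGFR3 and FGFR4 are the tallest red bars at 23.1 and 22.4.

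The gene length behind each FPKM, obtained from counts over FPKM, follows the mix of transcripts that the quantification assigned. For FGFR3 it was 3.97 kb in the untreated and 3.89 kb in the refractory library, for FGFR4 2.73 and 2.67 kb, and for FGFR2 3.53 and 3.60 kb. Those lengths hardly moved between libraries. For FGFR1 they were 4.24 and 3.33 kb, at 14 and 27 counts.

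The 4 receptors were also set among 58 human receptor tyrosine kinases. Of these, 32 were described, 6 called higher and 4 lower, with a median of 0.09. The 6 include FGFR3 and FGFR4, which were chosen with their counts in view. Over all described genes the shares were 9.80% higher and 11.0% lower. FGFR3 and FGFR4 were numbers 1 and 2 from the highest difference. By FPKM, FGFR3 was number 29 in the untreated and number 8 in the refractory tumour, and FGFR4 went from number 26 to number 9. FGFR2 was number 19 and number 17. The kinases whose differences lay nearest to those of FGFR3 and FGFR4, apart from each other, were AXL, a receptor for GAS6, at 1.29 and 18.5 CPM (3.09 on the log2 scale), and the ephrin receptor EPHB2 at 9.06 and 36.5 CPM (1.90). At the other end stood the neurotrophin receptor NTRK2 (74.9 and 1.57 CPM), EPHB6 (19.7 and 0.118 CPM) and EPHA4 (45.5 and 5.23 CPM). The call of EPHA10 as higher (4.47 and 10.1 CPM) was lost under total count scaling, with or without the 50 most abundant genes. With 5 CPM added and on the FPKM scale, EPHA10 and MERTK (0.863 and 4.11 CPM) both lost their calls, which left 4 kinases higher. MERTK, which passed 1 CPM only in the refractory library, was also lost with a filter of 10 CPM.

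**Figure D3:**
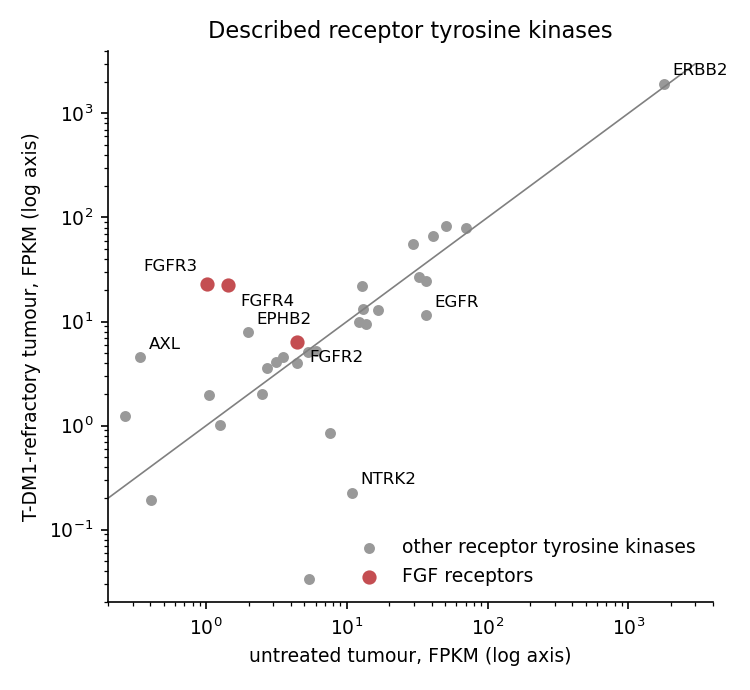
FPKM of the 32 described receptor tyrosine kinases in the untreated (x, log axis) and the T-DM1-refractory tumour (y, log axis), 1 point per gene, FGF receptors in red and the line marking equal values. FGFR3 and FGFR4 lie far above the line, FGFR2 just above it, and NTRK2 and EGFR below it.

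FGFRL1 (chromosome 4, coding part 1012486 to 1025347) binds FGFs and heparin but has no kinase domain. It had 2943 and 1201 counts, 38.5 and 20.2 CPM. The untreated library was 1.90-fold higher (95% interval 1.78 to 2.04), and at -0.89 on the log2 scale the gene missed the call. By FPKM, FGFRL1 was first of the 8 genes in the untreated tumour (13.8) and number 4 in the refractory one (7.16). Its level was therefore above the sum of all 4 kinases in the untreated and below it in the refractory tumour.

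FGF19 (chromosome 11, coding part 69699262 to 69703876) is the endocrine ligand of the FGFR4 and KLB complex. It had 1854 counts in the untreated and 80 in the refractory library, 24.2 and 1.35 CPM. The refractory library was 18.0-fold lower (95% interval 14.4 to 22.8), a difference of -3.43 on the log2 scale and number 164 from the lowest among the described genes. FGF19 and FGFR4 thus differed between the tumours in opposite directions. Per length, FGF19 stood 9.20 times above FGFR4 in the untreated tumour (13.2 and 1.43 FPKM), and FGFR4 stood 30.9 times above FGF19 in the refractory tumour (22.4 and 0.723 FPKM).

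KLB (beta-klotho, chromosome 4, coding part 39406950 to 39448686) had 63 and 28 counts, 0.824 and 0.472 CPM, in a gene at the lower end of the 8 in both libraries (0.145 and 0.0814 FPKM). The ratio of untreated over refractory was 1.75 (95% interval 1.10 to 2.83), which was not described because of the low level. KL, the other klotho, which serves FGF23, had 0 counts in both libraries, which allows up to 0.0392 and 0.0506 CPM. Of 13 genes of the bile acid side of this axis, none reached 1 CPM, and CYP7A1, the rate-limiting enzyme of bile acid synthesis, was at 0 in both.

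FGFBP1 (chromosome 4, coding part 15935928 to 15936632) is secreted and frees FGFs from the matrix. It had 929 and 764 counts, 12.2 and 12.9 CPM. The ratio was 1.06 (95% interval 0.962 to 1.17), so the libraries were indistinguishable by counting error alone. Its relative FGFBP3 stood at 2.89 and 1.62 CPM and was not called, and FGFBP2 had 14 and 0 counts.

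In the authors' deposited table, p-values that set 1 library against the other were 0.00029 for FGFR3, 0.00108 for FGFR4 and 0.0007 for FGF19. The lowest p of the other 5 genes in the authors' deposited table was 0.282, for FGFR1. They come from the same counts that chose the genes and compare these libraries, not the conditions.

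Of 18 secreted ligands, FGF19 among them, 7 were described, 0 were higher and 5 lower. Over all described genes the shares were 9.80% higher and 11.0% lower. The ligand median was -2.19 against 0.03 for all described genes. That median is the value of FGF3, which, like FGF2, passed 1 CPM only in the untreated library, and over all 18 ligands with no filter the median was -0.64. FGF2, or basic FGF, had 2882 and 12 counts, 37.7 and 0.202 CPM. It was 186-fold lower (95% interval 107 to 361), and it overlaps NUDT6 on the opposite strand, so its counts may include reads of NUDT6. FGF20, a ligand of the FGF9 subfamily, stood at 13.6 and 1.69 CPM, 8.06-fold lower. FGF9 (11.6 and 1.85 CPM), named after its values were seen, and FGF3 (289 and 3 counts) were the other lower ligands. FGF3 lost its call with 5 CPM added and with a filter of 10 CPM, which left 4 ligands lower. FGF1, which activates every FGF receptor, stood at 6.45 and 5.76 CPM, and FGF18 at 2.22 and 1.97 CPM. The mesenchymal ligands of epithelial FGFR2 were low: FGF7 stood at 0.262 and 0.438 CPM and FGF10 at 0 in both. These are human transcripts, so ligands made by mouse cells of the host are not measured. Of the 4 homologous factors, which stay inside the cell, FGF11 was described and higher (0.968 and 3.35 CPM), a call lost with 5 CPM added, on the FPKM scale and with a filter of 10 CPM.

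**Figure D4:**
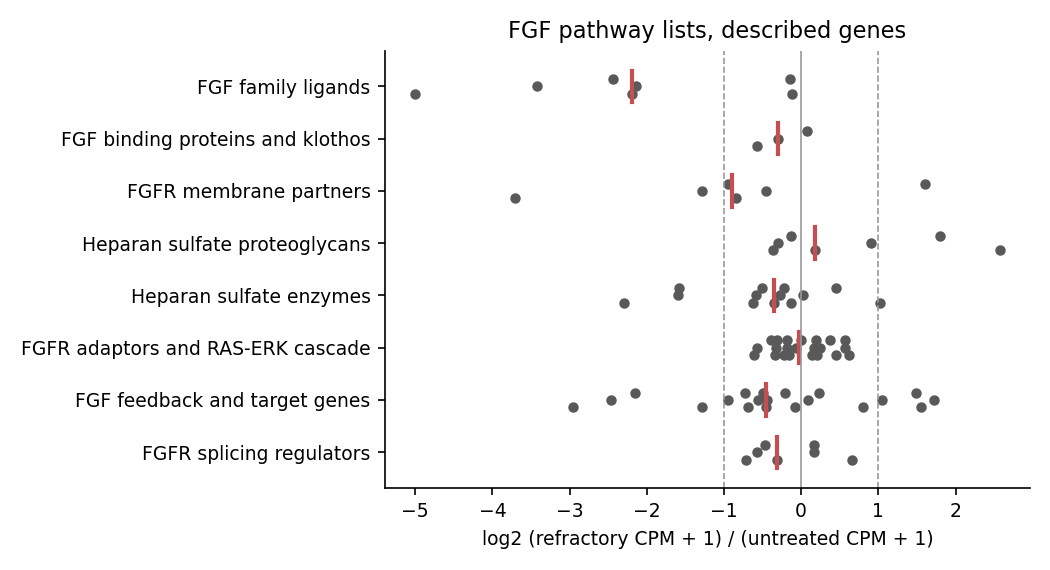
Difference on the log2 scale (x, 1 CPM added) of every described gene in 8 lists of the FGF pathway, 1 point per gene with a red bar at the list median and dashed lines at 2-fold. The ligands lie left of 0 with a median of -2.19, while the adaptors and the RAS-ERK cascade all lie between the dashed lines.

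Membrane partners and heparan sulfate genes were mixed. Among all described genes, 9.80% were higher and 11.0% lower. Of 9 partners 6 were described, 1 higher and 2 lower (median -0.90): the adhesion protein NCAM1 stood at 12.9 and 0.0674 CPM, FLRT3, which binds FGF receptors, at 100.7 and 40.8 CPM, and NRCAM at 0.575 and 3.78 CPM. NRCAM, the higher one, lost its call with 5 CPM added, on the FPKM scale and with a filter of 10 CPM. IL17RD, an inhibitor of FGF signalling at the membrane, stood at 27.5 and 13.7 CPM and passed 2-fold only without the added 1 CPM. Of 12 proteoglycan genes 7 were described, 2 higher and 0 lower (median 0.18), namely syndecan-3, SDC3, at 17.7 and 111 CPM and perlecan, HSPG2, at 48.6 and 171 CPM. SDC1, the main epithelial syndecan, stood at 176 and 329 CPM. Of 14 enzymes that build or trim the chain 13 were described, 1 higher and 3 lower (median -0.35). The sulfatases SULF2 (54.6 and 10.4 CPM) and SULF1 (2.54 and 0.169 CPM), which remove the 6-O-sulfates that FGF signalling uses, were lower, as was the epimerase GLCE (261 and 86.8 CPM). SULF1 passed 1 CPM only in the untreated library. It lost its call with 5 CPM added, on the FPKM scale and with a filter of 10 CPM. EXT1, a chain polymerase, was higher (41.0 and 84.5 CPM), a call lost with 5 CPM added, on the FPKM scale and under total count scaling, with or without the 50 most abundant genes.

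In the relay from receptor to ERK, all 22 genes were described and 0 were called in either direction. Among all described genes, 9.80% were higher and 11.0% lower. The differences in the relay ran from -0.61 to 0.61, with a median of -0.03. At the ends of that range stood CBL (144 and 94.4 CPM) and MAP2K1 (46.0 and 71.0 CPM). At 1.5-fold 1 gene was higher, MAP2K1, and 1 lower, CBL. The adaptor FRS2 stood at 92.2 and 88.1 CPM, and the phosphatase PTPN11, the most abundant of the list, at 405 and 357 CPM.

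Feedback inhibitors and targets of the pathway went both ways. Of 20 genes, all described, 4 were higher and 4 lower, with a median of -0.45. Over all described genes the shares were 9.80% higher and 11.0% lower. PHLDA1 stood at 1027 and 132 CPM, the ETS factor ETV1 at 22.5 and 3.25 CPM, the Sprouty gene SPRY3 at 100.1 and 21.7 CPM, and DUSP6, the ERK phosphatase, at 280 and 115 CPM. Higher were the immediate early gene IER3 (6.51 and 23.7 CPM), the AP-1 subunit FOSL1 (6.40 and 20.6 CPM), SPRY2 (8.12 and 24.6 CPM) and MYC (71.1 and 147 CPM). DUSP6 and MYC were named after their values were seen. Of the other Sprouty genes, SPRY1 stood at 18.5 and 19.6 CPM and SPRY4 at 33.4 and 22.4 CPM. These genes also answer to other receptors that use ERK.

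The 7 splicing regulators that act on FGFR exons were described and none was called (median -0.31), beside 9.80% higher and 11.0% lower among all described genes. At 1.5-fold 1 of them was higher and 1 lower. ESRP1, which favours the epithelial form of FGFR2, stood at 487 and 351 CPM, and ESRP2 at 97.2 and 58.9 CPM.

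Since 4 of the 8 genes lie on chromosome 4, each gene was set beside the 10 described genes on either side. The background for these neighbour counts is the share over all described genes, 9.80% higher and 11.0% lower. The 20 neighbours of FGFR3 were all above 0, from 0.38 to 2.04, with 11 higher, 0 lower and a median of 1.02. FGFR3 itself, at 4.19, stood above every one of them. The nearest were TACC3, a spindle protein gene, at 33.8 and 89.6 CPM, and LETM1, a mitochondrial ion exchanger gene, at 31.6 and 65.4 CPM. LETM1 and HAUS3 lost their calls under total count scaling, with or without the 50 most abundant genes, which left 9 of 20 higher.

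FGFRL1 lies in the same stretch and shares 6 of its 20 neighbours with FGFR3. Its neighbours had 5 higher, 0 lower and a median of 0.74, and ran from -0.14 to 3.33. FGFRL1, at -0.89, stood below all 20. On its sides lie IDUA, a lysosomal iduronidase gene (4.84 and 4.32 CPM), and SPON2 (13.4 and 14.4 CPM). FGFBP1 (0.08) and KLB (-0.31) also stood below the medians of their neighbours, 0.69 and 0.53 (1.03 for KLB with 5 on each side). Their nearest neighbours were FAM200B (35.2 and 34.96 CPM) and PROM1 (2.56 and 6.41 CPM) for FGFBP1, and RFC1 (90.9 and 161 CPM) and RPL9 (335 and 790 CPM) for KLB.

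FGFR4's 20 neighbours had 5 higher, 0 lower and a median of 0.44. Next to it, ZNF346 stood at 12.6 and 11.8 CPM and NSD1 at 249.7 and 175 CPM, so the genes on its flanks were not called. Only CDHR2, an intestinal protocadherin gene 524 kb before it, had a larger difference (6.98).

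Around FGF19, 1 of 20 neighbours was higher and 3 lower, with a median of 0.21, which turned to -0.18 with 5 neighbours on each side. The lower ones, MYEOV (91.6 and 23.5 CPM), LOC101928262 (29.2 and 7.50 CPM) and FGF3, lie within 404 kb of FGF19. The call of FGF3 was lost with 5 CPM added. ORAOV1, the nearest gene on one side, stood at 22.8 and 23.4 CPM, and FGF19 at -3.43 was below all 20. For FGFR2 the neighbour median was 0.05, with WDR11 (127 and 120 CPM) and ATE1 (91.6 and 107 CPM) on its flanks. For FGFR1 it was 0.15, with LETM2 (1.63 and 5.19 CPM) and TACC1 (51.6 and 96.6 CPM).

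**Figure D5:**
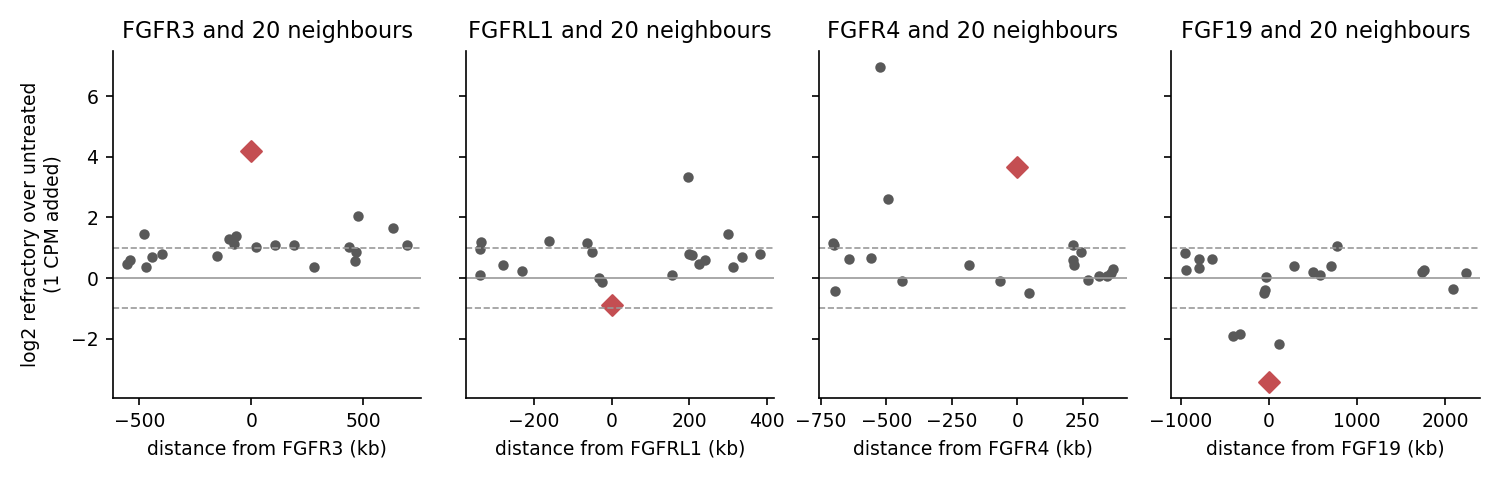
Difference on the log2 scale (y, 1 CPM added) of FGFR3, FGFRL1, FGFR4 and FGF19 (red diamonds at 0) and of the 10 described genes on each side (grey points) against distance between coding starts in kb (x). FGFR3 lies above all of its neighbours, FGFRL1 and FGF19 lie below all of theirs, and 1 neighbour, CDHR2, lies above FGFR4.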

How the data were processed

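The 2 libraries were grouped by the treatment and title labels, and the authors deposited 1 table for both. It holds read counts as the authors deposited them, which are expected counts (92.8% and 93.2% whole, within 1e-09). FPKM, as named per the file headers, divides by length and depth. The deposited log2 fold change and p-value set 1 library against 1. The submitters' processing notes name STAR 2.7.0e, RSEM 1.2.28, bcl2fastq 2.20, edgeR 3.26.8 and the builds GRCh38 and GRCm38. How each was used, the annotation, strand handling and the p-value's dispersion: not given in the sources used here. Coordinates are the coding part on GRCh38, counted from 1.

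Expected counts were rounded, and edgeR 4.0.16 (R 4.3.3) gave the TMM factors, 1.01 and 0.99. Each ratio has a 95% Clopper-Pearson interval conditional on the summed counts (scipy 1.17.1), which covers counting error only, since without molecular identifiers reads are not separate molecules. A count of 0 allows up to 3 counts. The scaling and calls were run on simulated Poisson counts with known changes put into well-counted genes. That simulation had no variation between tumours, so it cannot check calls made from 1 library per group. Members and lists were chosen with earlier results of these data known; 1 list symbol, ANOS1, was not matched. Genes named are the members, up to 3 list members per direction past 2-fold or else the most abundant, the nearest described neighbours, the 3 kinases nearest in log2 difference, and ERBB2; others were chosen after their values were seen. Promoter windows from RefSeq were searched by symbol for 7 of the 8 genes, with FGFR1 left out, and 6 had a window. Alternatives were 3 other scalings, pseudocounts of 0.1 and 5 CPM, FPKM, other filters and folds, 5 neighbours per side and, added after the data were seen, removal of the GC and length trend (10 bins, 10 rounds) and of the neighbours' median.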

Additional observations from a re-analysis of the deposited data

How the results depend on the processing

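No called value changed sign. Among values short of a call, these changed sign. FGFBP1 (0.08) was at -0.61 and -0.14 in the settings below. The median of the neighbours of FGF19 was at -0.18 with 5 on each side. With no filter the proteoglycan median was at -0.06 and the median of all genes, 0.03, was at -0.02. The binding protein median was at 0.08 with a filter of 10 CPM. The calls of FGFR3, FGFR4 and FGF19 held in every setting run on them. Their log2 differences were 4.46, 3.93 and -4.07 with 0.1 CPM added, 3.41, 2.88 and -2.20 with 5 CPM added, and 3.58, 3.26 and -3.04 on the FPKM scale. With 5 CPM added FGFRL1 was at -0.78. Less the median of their 20 neighbours, FGFR3 was at 3.17, FGFR4 at 3.22, FGFBP1 at -0.61 and FGFRL1 at -1.63, past the 2-fold line. With the GC and length trend removed FGFBP1 was at -0.14. The ligand median was -2.94 with 0.1 CPM added, -1.27 with 5 CPM added, -0.64 with no filter and -2.93 with a filter of 10 CPM, since each changes the weight or number of low genes. All described genes called higher and lower numbered 821 and 840 with 5 CPM added, 2755 and 2677 at 1.5-fold and 360 and 504 at 4-fold, and 921 were lower with a filter of 10 CPM. Feedback and target genes had 7 lower at 1.5-fold and 0 higher at 4-fold. The 3 other scalings moved the median of all genes by less than 0.1. Of 292 further values, for the other lists, neighbourhoods and genes, 26 moved by over 1.5 times. No paired analysis was possible because each group has 1 library. Depth limits FGFR1 and KLB most, at 14 to 63 counts.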

Other observations

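Genes of bile acid handling, which in the gut accompany FGF19, were at trace level. Of the 13 listed, those whose interval left out 1 were all higher, and the lower ones had intervals that included 1. CYP27A1, a bile acid synthesis enzyme, had 25 and 11 counts (ratio 0.567, 95% interval 0.252 to 1.19). SLC10A1, a bile acid importer, had 6 and 1 (ratio 0.215, 95% interval 0.00467 to 1.77). NR0B2, the nuclear receptor SHP, had 0 and 13 counts. With the 0 set at the floor of 3 counts it was 5.58-fold higher, and the 95% lower limit from the counts themselves was 3.93. FABP6, the ileal bile acid binding protein, had 0 and 19 counts and was 8.16-fold higher with the 0 set at that floor, with a lower limit of 6.01. The bile salt exporter gene ABCB11 had 6 and 37 counts, a ratio of 7.95 (95% interval 3.32 to 23.0), and SLC51B, a subunit of the organic solute transporter, had 3 and 26, a ratio of 11.2 (95% interval 3.42 to 57.7). NR5A2 had 22 and 33 counts, a ratio of 1.93 (95% interval 1.09 to 3.48). NR1H4, the bile acid receptor FXR, had 0 and 3 counts. All of these lay under 1 CPM in both libraries, and they were chosen after their values were seen.

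The number of GC boxes was also counted for other genes. The cut at 7 is FGFR4's own count, taken with both receptors known to be higher, so nothing is read from that group's share. Of 14167 described genes 10085 had a promoter window, taking the window with the most matches where a gene had several. With 7 or more GC boxes, FGFR3 and FGFR4 included, 38 of 267 genes were higher (14.2%) and 29 lower (10.9%), with a median of 0.08. With 1 to 6, 9.34% of 7131 were higher and 9.62% lower, and with none, 9.83% of 2687 were higher and 12.4% lower.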
